A study of Mus musculus with 13 samples.

Results

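Interferon-induced genes are the families that cells switch on when interferons reach them. The members were taken by symbol from the count table. They include the Ifit, Ifitm, Ifi, Oas, Gbp, Irf, Irgm and Iigp genes, Mx1, Mx2, Isg15, Isg20, Rsad2, Stat2, Usp18, Igtp and Ifih1. Among 54513 genes, 79 symbols matched, and the 68 with more than 130 reads summed over the 13 libraries were kept. The 11 left out ran from Oas1h with 2 reads to Ifitm5 with 120, and the lowest kept were Gbp10 with 171, Gbp11 with 182 and Ifitm6 with 182. All 68 also passed the low-count filter, which left 20468 genes to test. The rule uses symbols and summed reads, and it was set with earlier results of these data known.

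The libraries were made from 8 ng of total RNA each, from a 10 µm section of formalin-fixed, paraffin-embedded lung. The mice were male C57Bl/6, 7 to 8 weeks old, sampled at day 21 after bleomycin, a DNA-damaging drug used to model lung fibrosis, or after saline. The 5 saline libraries (saline 1 to 5) and bleomycin 5 to 8 carry the batch label 1, and bleomycin 1 to 4 carry the batch label 2. The labels do not say what the batch stands for, nor the dose or route. They do not say whether each library came from its own animal, and p-values then cover the spread of these libraries alone, which may be technical. The numbers in the library names run apart for saline, for batch 1 bleomycin and for batch 2 bleomycin, and in batch 1 such sets coincide with treatment. Bleomycin 8 has contradictory labels: its title calls it a control, while its treatment label and library name say bleomycin, and it was kept as bleomycin.

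Interferons are secreted proteins that act through receptors on the cell surface. Type I interferons bind the Ifnar1 and Ifnar2 receptor, whose kinases activate a complex that holds Stat2 and Irf9 and binds the interferon-stimulated response element (ISRE) in promoters. Type II interferon (interferon gamma) binds the Ifngr1 and Ifngr2 receptor and activates factors that bind the gamma-activated site (GAS). Most interferon-induced genes answer to both kinds to some degree. For the comparison, 28 members better known as targets of type I interferon (Ifit, Isg, Mx, Oas, Rsad2, Usp18, several Ifi genes, Irf7, Irf9, Stat2) were listed as type I-led. The 19 listed as type II-led included the Gbp genes, the Irgm, Igtp and Iigp1 GTPases, Ifi30, Ifi47, Irf1 and Irf8. The remaining 21 (the Ifi200 and Ifitm genes and the other Irf genes) were put in neither list.

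The promoters of these genes show the sequences through which interferon signals are known to act. RefSeq promoters, each 250 bases before to 50 bases after a start site (build GRCm38.p6, which differs from the build of the counts), were found for 50 of the 68 members, 62 promoters in all. The ISRE core was searched as GAAA, any 2 bases and GAAA again, and the GAS core as TTCNNNGAA, each on both strands. An ISRE core was in 51.6% of the members' promoters and in 3.44% of all 32851 promoters in the table, and a GAS core was in 21.0% and 8.30%. The ISRE core was about as frequent in type I-led promoters (51.9%) as in type II-led promoters (50%). The GAS core was in 42.9% of the 14 type II-led promoters and in 14.8% of the 27 type I-led promoters. The 250 bases before the start are shown for Rsad2 and Oas3, the type I-led members with the largest changes below, and for the promoter of Irf8 that holds GAS cores. Only stretches that hold a core are printed, here and in the shorter windows that follow. The promoters of Irf7, Ifi30 and Ifi47, which were also called higher, held neither core, nor did another promoter of Irf8. Capitals mark the core as it reads on the printed strand, so the element of Rsad2 appears as its reverse complement. The same holds for Ifit1, Ifit3 and Gbp2 in the shorter windows.
Rsad2 (chr12:26456453-26456702, minus strand, ISRE core starting 120 bases before the start): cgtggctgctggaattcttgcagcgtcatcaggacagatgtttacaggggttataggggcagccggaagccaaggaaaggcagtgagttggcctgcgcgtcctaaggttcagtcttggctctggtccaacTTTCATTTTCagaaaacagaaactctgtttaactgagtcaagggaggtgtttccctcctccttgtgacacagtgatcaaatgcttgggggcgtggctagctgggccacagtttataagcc
Oas3 (chr5:120777660-120777909, minus strand, ISRE core starting 75 bases before the start): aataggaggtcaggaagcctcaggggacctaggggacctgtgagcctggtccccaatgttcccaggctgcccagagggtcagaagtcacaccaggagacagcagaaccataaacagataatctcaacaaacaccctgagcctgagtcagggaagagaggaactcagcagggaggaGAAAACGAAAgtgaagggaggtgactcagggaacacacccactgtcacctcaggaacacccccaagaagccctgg
Irf8 (chr8:120736108-120736357, plus strand, GAS cores starting 171 and 153 bases before the start): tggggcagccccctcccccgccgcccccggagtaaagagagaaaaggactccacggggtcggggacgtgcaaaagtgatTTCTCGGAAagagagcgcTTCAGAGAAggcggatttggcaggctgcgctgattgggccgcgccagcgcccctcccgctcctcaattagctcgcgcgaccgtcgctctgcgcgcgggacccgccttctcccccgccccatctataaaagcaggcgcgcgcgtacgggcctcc

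Shorter windows are shown for members that are compared below, because genes with and without a change can carry these cores. These windows were picked after the values had been seen, and a match is a description of letters, not of binding. Isg15 and Ifit1 were higher after bleomycin while Ifit3 was not called in batch 1. Ifi211 was higher and Ifi208 lower, and both hold an ISRE core. Irf1, which was not called, holds a GAS core.
Isg15 (chr4:156200867-156200904, minus strand, 3 overlapping ISRE cores): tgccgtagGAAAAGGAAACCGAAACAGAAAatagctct
Ifit1 (chr19:34640777-34640821, plus strand, 2 ISRE cores): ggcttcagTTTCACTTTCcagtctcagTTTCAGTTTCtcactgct
Ifit3 (chr19:34583365-34583424, plus strand, 2 ISRE cores): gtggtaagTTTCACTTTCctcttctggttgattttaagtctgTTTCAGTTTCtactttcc
Gbp2 (chr3:142620596-142620621, plus strand, 1 ISRE core): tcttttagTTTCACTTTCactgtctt
Igtp (chr11:58199503-58199539, plus strand, 1 GAS core and 1 ISRE core): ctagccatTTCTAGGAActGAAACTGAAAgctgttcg
Ifi211 (chr1:173913066-173913091, minus strand, 1 ISRE core): aagccaggGAAATTGAAAgctatgaa
Ifi208 (chr1:173673599-173673624, plus strand, 1 ISRE core): tctctgagGAAATCGAAAgctatgaa
Irf1 (chr11:53769916-53769940, plus strand, 1 GAS core): agcctgatTTCCCCGAAatgatgag
Among members called higher in batch 1, 51.7% of promoters held an ISRE core, and among the others 51.5% did. The GAS core was in 13.8% and 27.3% of these promoters. The promoter windows of Ifit1 and Ifit1bl2, which lie on opposite strands, share 245 bases, so the core counts of that pair are not independent.

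Total counts per library were 6337147 to 28885129, with 9527580 to 26043735 in saline, 21727502 to 28885129 in batch 1 bleomycin and 6337147 to 12982422 in batch 2 bleomycin. Levels are given as the count scaled to a common library total (CPM) after TMM correction, and a change is a log2 difference between groups with its standard error (SE). A gene was called when edgeR's quasi-likelihood test gave a Benjamini-Hochberg adjusted p under 0.05 over the 20468 genes. Batch 1 gives the comparison of bleomycin with saline. Batch 2 has no saline libraries, so its bleomycin libraries were set against the same 5 saline libraries, and there batch and treatment cannot be told apart. Surfactant, alveolar and airway markers of lung, with Lyz2, which macrophages also make, were present in every library, with a summed level of 13130 to 20660 CPM in saline. It was 5759 to 9003 CPM in batch 1 bleomycin, where 6 of 8 such markers were lower. In batch 2 bleomycin it was 7424 to 15910 CPM, with 2 markers higher and 2 lower than saline.

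Many of the families rose with bleomycin. In batch 1, 36 of the 68 members (52.9%) were called higher and 2 (among them Ifi208) were called lower, while 17.5% of all tested genes were called higher and 13.4% lower. Calls in either direction took in 30.9% of all genes. The median log2 change was 0.52 over the members and 0.03 over all genes. The summed level of the members ran from 1168 to 1421 CPM among saline libraries, from 1643 to 2092 CPM among those of batch 1 bleomycin and from 1678 to 1906 CPM among those of batch 2, without overlap between saline and bleomycin. For 28 members every batch 1 bleomycin library lay above every saline library, as did 14.0% of all genes. Bleomycin 7 held the highest level of 17 of the 68 members and bleomycin 1 that of 12. With bleomycin 8 counted as saline, as its title has it, only 8 members were called higher and 0 lower. When that library was left out, 29 members were called higher, and for 27 of them it lay above every saline library.

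**Figure D1:**
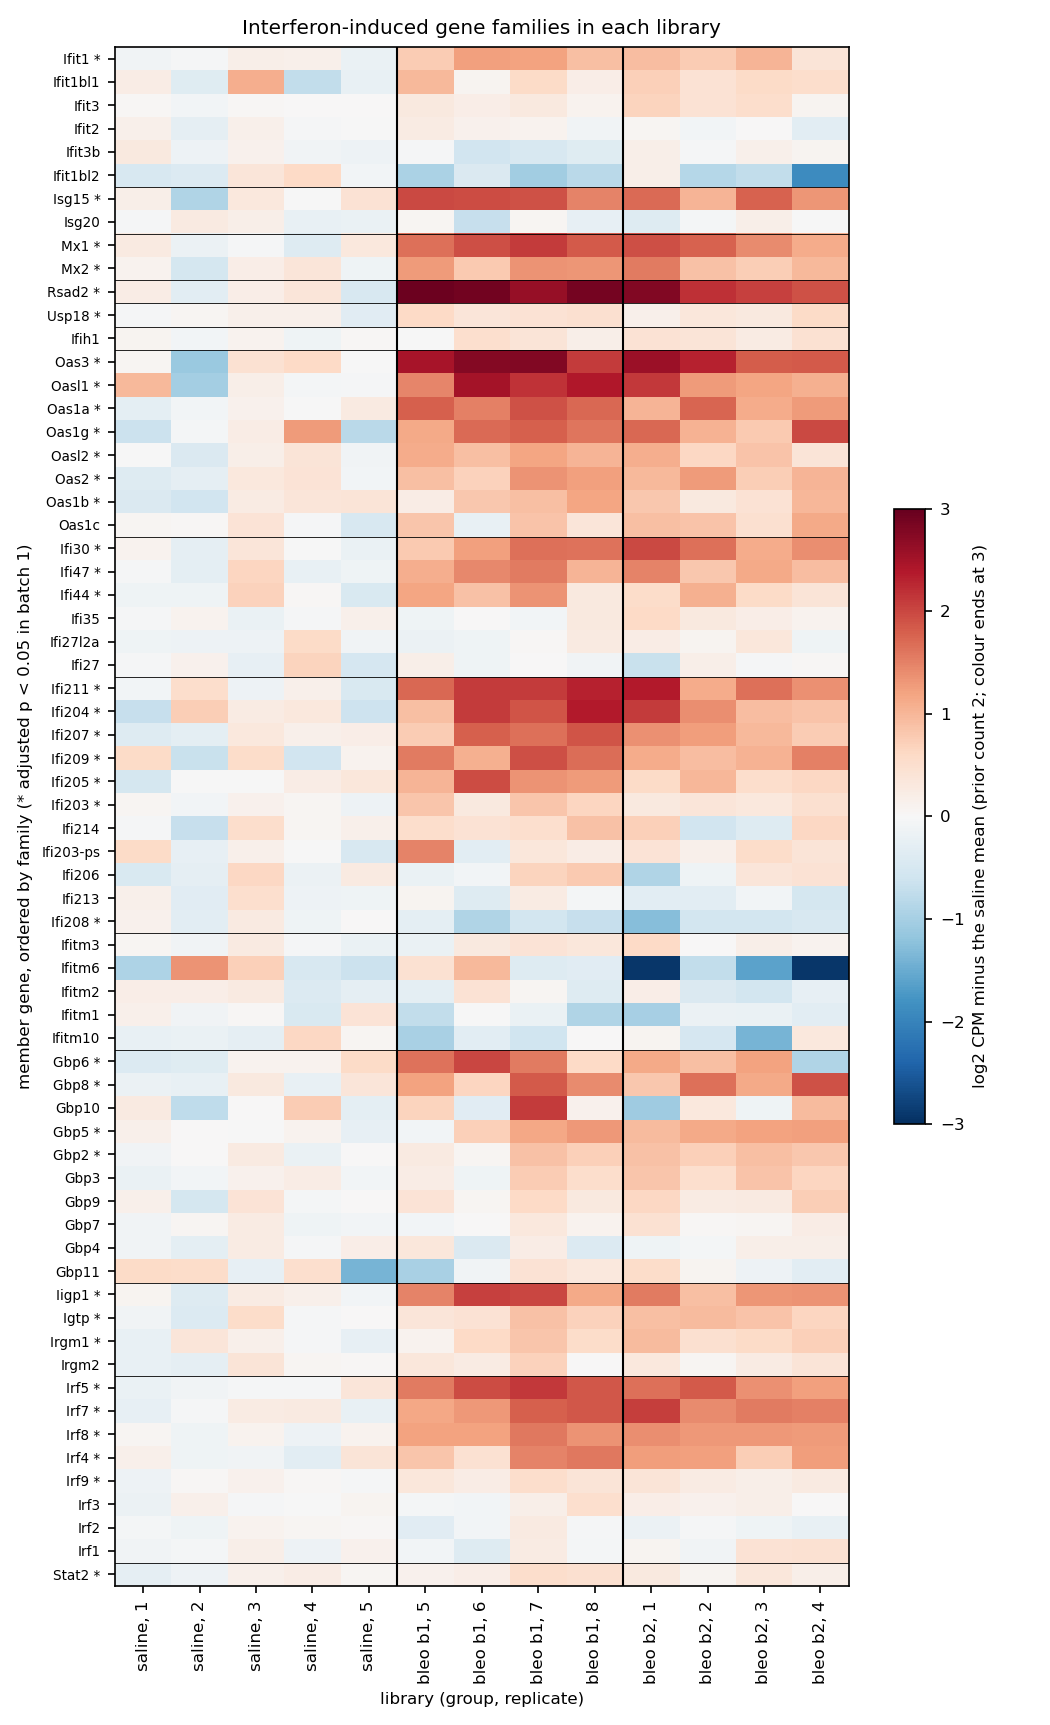
Each row is 1 of 66 members, ordered by family, and each column is 1 library; colour gives the log2 CPM minus the saline mean, with a prior count of 2 and the scale ending at 3. Rsad2, Oas3, Mx1, Iigp1 and Irf5 are red in all 8 bleomycin columns, Ifi208 is blue in them, and most Ifitm rows stay pale.

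The interferon genes themselves were at or below what these libraries could measure. Of 12 listed ligands 7 had 0 counts in all 13 libraries, among them Ifnb1, and none passed the filter. Ifng, the gene of interferon gamma, had 4 counts in all, in 2 libraries. Ifnk had the most, 25 counts in 4 libraries, of which 15 lay in 1 library. For a gene with 0 counts in a group, 3 counts over the group allow up to 0.0337 CPM in saline, 0.0291 CPM in batch 1 bleomycin and 0.087 CPM in batch 2 bleomycin, for counting error only. The limits are higher where each mate of a read pair was counted. Changes of a ligand within such limits were therefore not detectable at this depth, and no ligand was tested.

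Receptors and the first signalling steps were measurable, and 9 of 12 listed genes rose in batch 1. The median log2 change was 0.42 over the list. In that comparison 17.5% of all tested genes were called higher and 13.4% lower. The type I receptor chain Ifnar1 was 67.0 ± 6.5 CPM (SD, n = 5) in saline and 89.2 ± 15.6 CPM (n = 4) in batch 1 bleomycin, a log2 change of 0.41 (SE 0.11, adjusted p = 0.0119). That call was lost without bleomycin 8 or saline 4. Its partner Ifnar2 changed by 0.42 (SE 0.09, adjusted p = 0.00267). The type II receptor chains Ifngr1 and Ifngr2 rose by 0.35 (adjusted p = 0.00869) and 0.42 (adjusted p = 0.00968) on the log2 scale. Among the receptor kinases, Jak1 rose by 0.56 and Jak2 by 0.60. The largest change of the list was that of Socs3, a feedback inhibitor of cytokine signalling, at 2.83 (SE 0.30, adjusted p = 4.55e-05). Ifnlr1, the receptor chain of type III interferon, which epithelial cells carry, fell by 0.93 on the log2 scale (SE 0.16, adjusted p = 0.000363). Pias1, an inhibitor of cytokine signalling, fell by 0.31 (adjusted p = 0.0107).

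Of 15 tested genes listed for nucleic acid sensing, which lies upstream of interferon production, 12 were higher in batch 1. The median log2 change over the list was 0.95, and 17.5% of all tested genes were called higher. The list also holds genes that are not themselves sensors, such as Mavs, Tbk1 and Adar. The endosomal DNA receptor Tlr9 rose by 2.42 (SE 0.30), the Z-form nucleic acid sensor Zbp1 by 2.22 (SE 0.31), the RNA receptor Tlr8 by 1.79 (SE 0.22) and the helicase Dhx58 by 1.62 (SE 0.20), with adjusted p from 2.22e-05 for Tlr8 to 8.97e-05 for Zbp1. Several of these receptors are made mainly by myeloid cells and B cells. Summed macrophage and monocyte markers were 285 to 310 CPM in saline and 595 to 1210 CPM in batch 1 bleomycin, and their part in the change was not tested.

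The transcription factors that carry the signal moved unequally. In batch 1, Irf4, Irf5, Irf7, Irf8 and Irf9 were called higher, while Irf1, Irf2 and Irf3 were not called. Irf8, which myeloid and B cells need to develop, stood at 32.8, 28.6, 33.7, 28.2 and 33.7 CPM in saline 1 to 5. It stood at 72.6, 72.0, 93.6 and 79.3 CPM in bleomycin 5 to 8 and at 82.0, 77.4, 77.3 and 76.3 CPM in bleomycin 1 to 4. All 8 bleomycin libraries lay well above the highest saline library, and the log2 change was 1.34 (SE 0.10, adjusted p = 4.39e-07). Irf5, which acts behind Toll-like receptors in myeloid cells, was 9.68, 10.3, 10.9, 10.9 and 14.3 CPM in saline. It was 33.0, 43.7, 48.6 and 40.6 CPM in batch 1 bleomycin and 35.2, 40.0, 28.9 and 26.4 CPM in batch 2 bleomycin. The groups did not overlap, saline 5 lay apart from the other saline libraries, and the batch 1 change was 1.89 (SE 0.15, adjusted p = 1.18e-06).

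Irf7, the factor that amplifies type I interferon production and is itself induced by it, was 6.65, 7.65, 9.34, 9.55 and 6.77 CPM in saline. Its levels were 17.9, 19.6, 27.7 and 29.01 CPM in batch 1 bleomycin and 33.5, 21.2, 23.7 and 22.9 CPM in batch 2 bleomycin. No bleomycin library came near the saline range, and the change was 1.55 (SE 0.19, adjusted p = 2.14e-05). Irf1, a rapid target of interferon gamma, gave a different picture, with 54.9, 56.4, 66.1, 53.2 and 64.5 CPM in saline and 56.0, 45.1, 69.9 and 56.5 CPM in batch 1 bleomycin. The groups overlapped fully, with a change of -0.05 (SE 0.14, adjusted p = 0.797). In batch 2 bleomycin Irf1 was 62.6, 54.7, 79.6 and 80.4 CPM. Irf2, its antagonist and the most abundant Irf gene by CPM, was 109 ± 6.88 CPM in saline (SD, n = 5) and 106 ± 18.3 CPM in batch 1 bleomycin (n = 4).

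Irf9 and Stat2, which carry the type I signal into the nucleus, rose by small amounts. Irf9 rose by 0.37 (SE 0.10, adjusted p = 0.0087). Stat2 rose by 0.34 (adjusted p = 0.0382), a call that was lost in 12 of 22 alternative analyses, among them DESeq2 and 6 that left out 1 library (bleomycin 3, 7 or 8 or saline 1, 2 or 5).

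**Figure D2:**
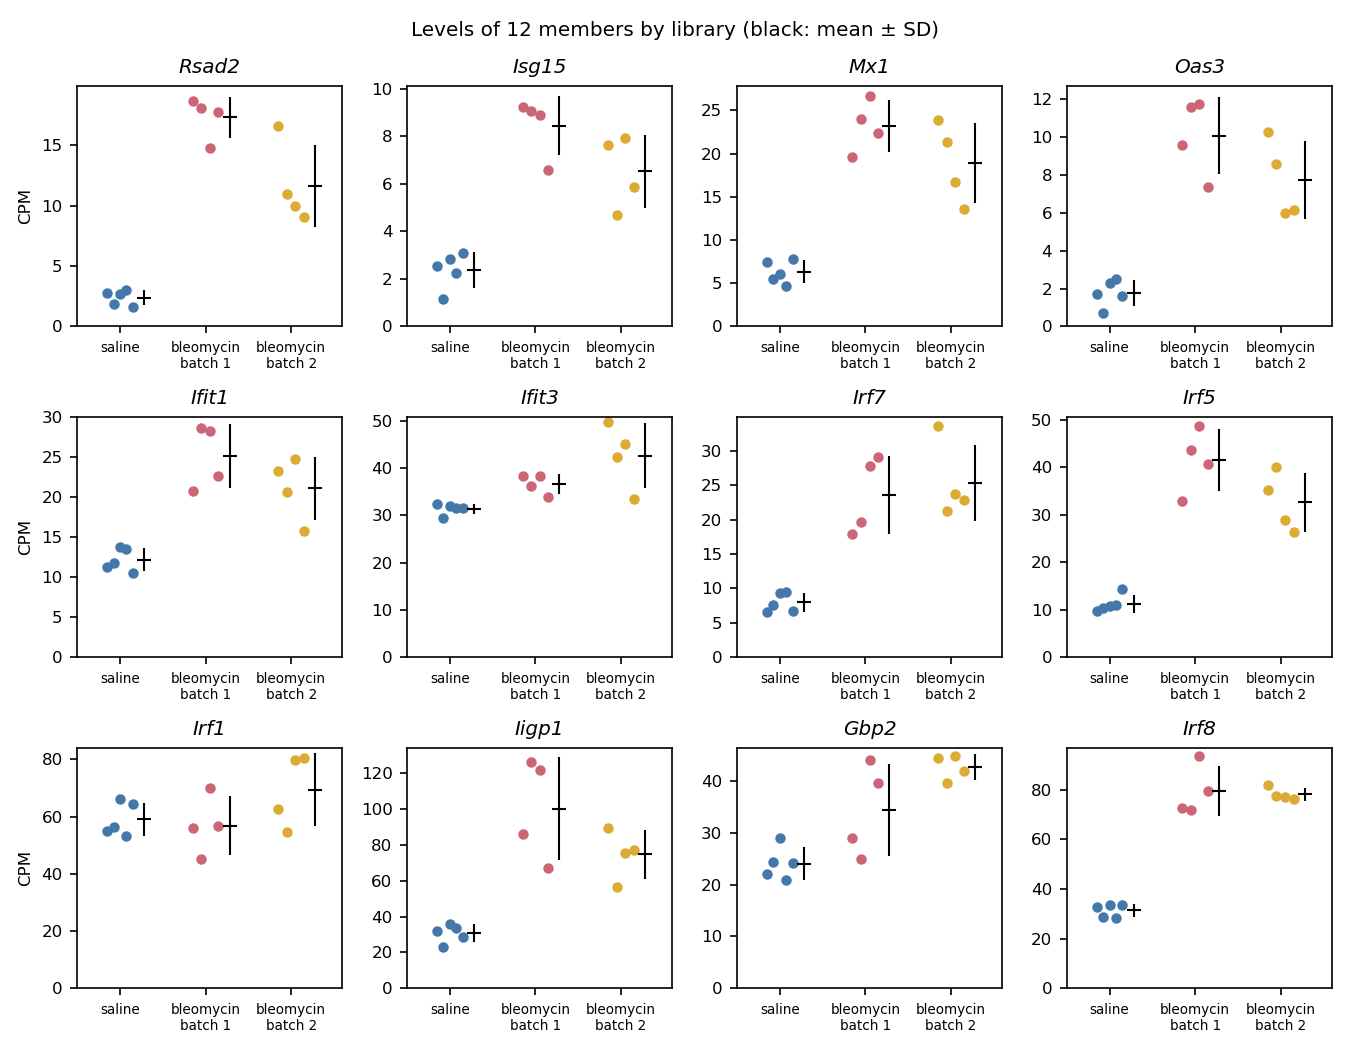
Each panel gives the CPM of 1 of 12 members in every library (points) with the mean ± SD of each group in black, on axes that start at 0. Rsad2, Isg15, Mx1, Oas3, Ifit1, Irf7, Irf5, Irf8 and Iigp1 separate saline from both bleomycin batches, while Irf1 overlaps across all 3 groups.

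Genes of the antiviral families led by type I interferon held the largest changes. Rsad2 (viperin), an enzyme that makes a chain-terminating nucleotide, was 2.73, 1.85, 2.7, 3.02 and 1.62 CPM in saline. It was 18.7, 18.1, 14.8 and 17.7 CPM in batch 1 bleomycin and 16.6, 10.9, 9.97 and 9.08 CPM in batch 2 bleomycin. Every bleomycin library lay far above saline, with a log2 change of 2.83 (SE 0.22, adjusted p = 7.78e-07), 7.13-fold. Mx1 was 7.50, 5.45, 6.09, 4.71 and 7.80 CPM in saline and 19.6, 24.0, 26.7 and 22.4 CPM in batch 1 bleomycin. In batch 2 bleomycin Mx1 was 23.9, 21.3, 16.7 and 13.6 CPM, again without overlap with saline. The batch 1 change of Mx1 was 1.87 (SE 0.19, adjusted p = 3.93e-06), and its neighbour Mx2 changed by 1.17 (SE 0.23, adjusted p = 0.00135).

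Isg15, a ubiquitin-like protein that is joined to other proteins, was 2.56, 1.16, 2.85, 2.26 and 3.09 CPM in saline. It was 9.23, 9.06, 8.90 and 6.58 CPM in batch 1 bleomycin, where bleomycin 8 lay apart, and 7.64, 4.69, 7.95 and 5.86 CPM in batch 2 bleomycin. The groups did not overlap, and the change was 1.80 (SE 0.26, adjusted p = 0.0001). Usp18, the protease that removes Isg15 and dampens the type I receptor, changed less. Its mean was 9.85 ± 1.34 CPM (SD, n = 5) in saline and 13.6 ± 0.883 CPM (n = 4) in batch 1 bleomycin. That change of 0.46 (SE 0.15, adjusted p = 0.0239) was lost in 9 of 22 alternatives, among them the omission of bleomycin 5, bleomycin 8, saline 1, saline 2 or saline 5. The exonuclease Isg20 was not called, at -0.19 (SE 0.18, adjusted p = 0.465).

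Active Oas enzymes make oligoadenylates that activate the ribonuclease RNase L in response to double-stranded RNA. Not every gene of the family encodes such an enzyme. Of 8 tested Oas and Oas-like genes, 7 were called higher in batch 1 and none lower, with a median log2 change of 1.25. The share called higher was 17.5% over all tested genes. Oas3 was 1.71, 0.696, 2.30, 2.51 and 1.62 CPM in saline, 9.60, 11.6, 11.8 and 7.39 CPM in batch 1 bleomycin and 10.3, 8.57, 6.00 and 6.15 CPM in batch 2 bleomycin. Every bleomycin library lay above the highest saline library, and the change was 2.47 (SE 0.29, adjusted p = 1.85e-05). Oas1a rose by 1.77 (SE 0.22, adjusted p = 2.95e-05) and Oas2 by 1.03 (SE 0.19, adjusted p = 0.000756). The Oas-like genes Oasl1, which restrains Irf7, and Oasl2, the most abundant of the family by CPM, rose by 2.10 (SE 0.38) and 1.03 (SE 0.15). Oas1b and Oas1g were called on weaker ground, with adjusted p of 0.0467 and 0.0247 that were lost in 17 and 8 of 22 alternatives. Leaving out bleomycin 6, bleomycin 7 or bleomycin 8 was enough for both. Oas1c was not called, at 0.51 (SE 0.32, adjusted p = 0.241). The Oas1 copies are close paralogs, and how the authors' counting shared reads between them is not stated, so single values within Oas1 are uncertain.

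The Ifit genes, which bind foreign RNA and are usually counted among the strongest type I targets, were mostly not called in batch 1. Ifit1 alone of 6 was called higher, against 17.5% of all tested genes. Ifit1 was 11.2, 11.8, 13.8, 13.6 and 10.6 CPM in saline, 20.8, 28.7, 28.3 and 22.7 CPM in batch 1 bleomycin and 23.2, 20.6, 24.8 and 15.8 CPM in batch 2 bleomycin. Its groups did not overlap, and the change was 1.04 (SE 0.15, adjusted p = 0.000115). Ifit3 was 32.4, 29.6, 32.1, 31.6 and 31.6 CPM in saline, where saline 2 lay apart, and 38.4, 36.2, 38.4 and 33.9 CPM in batch 1 bleomycin. Those groups did not overlap either, yet the change of 0.22 (SE 0.11) was not called, with an adjusted p of 0.129. In batch 2 bleomycin Ifit3 was 49.8, 42.4, 45.0 and 33.4 CPM, and the change against saline was 0.44 (SE 0.11, adjusted p = 0.00664). Ifit2 was 35.2 ± 4.12 CPM in saline (SD, n = 5) and 37.6 ± 3.79 CPM in batch 1 bleomycin (n = 4), a change of 0.09 (adjusted p = 0.581). Ifit3b and Ifit1bl2 stood at -0.37 (adjusted p = 0.0944) and -0.91 (adjusted p = 0.103) in edgeR and were called lower by DESeq2 and limma-voom, Ifit3b also without bleomycin 5. Ifit3 and Ifit3b are near-identical copies, so the division of reads between them is uncertain.

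Other Ifi genes fell on both sides of the threshold. Ifi30, the lysosomal thiol reductase that prepares antigens for MHC class II, was 26.4, 20.4, 31.2, 24.3 and 21.3 CPM in saline and 42.1, 57.8, 76.7 and 76.2 CPM in batch 1 bleomycin. In batch 2 bleomycin it was 96.7, 77.6, 52.9 and 64.1 CPM. No library overlapped between saline and bleomycin, and the batch 1 change was 1.35 (SE 0.20, adjusted p = 0.000205). Ifi44 rose by 0.93 (SE 0.25, adjusted p = 0.0108). Ifi27, Ifi27l2a and Ifi35 stood at -0.07, -0.02 and 0.03 on the log2 scale, with adjusted p of 0.839, 0.939 and 0.889. Ifih1 (MDA5), the cytoplasmic sensor of long double-stranded RNA, was 35.5 ± 2.47 CPM in saline (SD, n = 5) and 42.9 ± 6.61 CPM in batch 1 bleomycin (n = 4), a change of 0.28 (SE 0.11, adjusted p = 0.0652). It passed the threshold in batch 2, at 0.38 (adjusted p = 0.0167).

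The Ifi200 genes, which encode nuclear and cytoplasmic DNA-binding proteins, mostly rose or were not called. Over all tested genes 17.5% were called higher and 13.4% lower in batch 1. Of 11 tested members in the cluster, 6 rose in batch 1 (Ifi211, Ifi204, Ifi207, Ifi209, Ifi205 and Ifi203), 1 fell (Ifi208) and 4 were not called. Ifi211 was 2.22, 3.48, 2.12, 2.64 and 1.69 CPM in saline, 8.12, 10.6, 10.5 and 12.2 CPM in batch 1 bleomycin and 12.8, 5.20, 7.69 and 6.30 CPM in batch 2 bleomycin. Every bleomycin library lay above saline, with a change of 2.10 (SE 0.27, adjusted p = 3.69e-05). Ifi207 was 10.1, 10.7, 16.4, 14.7 and 15.1 CPM in saline and 22.3, 45.6, 41.6 and 49.0 CPM in batch 1 bleomycin, a change of 1.56 (SE 0.22, adjusted p = 8.55e-05). Ifi208 was 19.1, 14.2, 21.3, 16.1 and 17.8 CPM in saline. It was 14.2, 9.38, 11.8 and 10.7 CPM in batch 1 bleomycin and 7.14, 11.9, 11.8 and 12.6 CPM in batch 2 bleomycin. Only bleomycin 5 reached the saline range, and the log2 change was -0.62 (SE 0.18, adjusted p = 0.0164). Without bleomycin 6 the call was lost and 1 member was still called lower. The Ifi200 genes are close paralogs, and reads shared between them could be split in the authors' counting.

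The GTPases led by type II interferon defend cells against parasites and bacteria that live in vacuoles. Iigp1 was 32.2, 23.1, 35.7, 33.7 and 28.4 CPM in saline. It was 85.7, 126, 122 and 67.2 CPM in batch 1 bleomycin and 89.3, 56.6, 75.4 and 77.2 CPM in batch 2 bleomycin. No library overlapped, and the change was 1.71 (SE 0.19, adjusted p = 2.08e-05). Igtp was 9.63, 7.89, 15.5, 10.1 and 10.4 CPM in saline and 13.6, 14.2, 19.2 and 16.9 CPM in batch 1 bleomycin, with overlap through saline 3. Its change of 0.57 (SE 0.18, adjusted p = 0.0229) was lost in 7 of 22 alternatives: batch 1 alone, bleomycin 8 as saline, and the omission of bleomycin 7, bleomycin 8, saline 1, saline 2 or saline 4. Irgm1 rose by 0.53 (SE 0.16, adjusted p = 0.0188), lost without bleomycin 7, bleomycin 8, saline 1 or saline 4, and Irgm2 was not called at 0.32 (adjusted p = 0.109). Ifi47, another GTPase of the group, rose by 1.25 (SE 0.21, adjusted p = 0.000409).

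Guanylate-binding proteins assemble on pathogen vacuoles and bacteria. Of 10 tested Gbp genes 4 rose in batch 1 (Gbp2, Gbp5, Gbp6 and Gbp8) and none fell. Over all tested genes 17.5% were called higher and 13.4% lower. Gbp8 was 3.90 ± 0.839 CPM in saline (SD, n = 5) and 9.86 ± 3.30 CPM in batch 1 bleomycin (n = 4), a change of 1.33 (SE 0.27, adjusted p = 0.00151). Gbp6 changed by 1.53 (SE 0.37, adjusted p = 0.00577), and Gbp5 by 0.86 (SE 0.21, adjusted p = 0.00601). Gbp2 was 22.0, 24.2, 28.9, 20.8 and 24.2 CPM in saline, 28.96, 25, 43.9 and 39.5 CPM in batch 1 bleomycin and 44.3, 39.5, 44.8 and 41.9 CPM in batch 2 bleomycin. Bleomycin 6 lay within the saline range in batch 1, and the change of 0.51 (SE 0.15, adjusted p = 0.0167) was lost without bleomycin 7, bleomycin 8 or saline 4. In batch 2 Gbp2 changed by 0.82 against saline (SE 0.15, adjusted p = 0.000888) with no overlap. Gbp7, the most abundant of the family by CPM, was 47.4 ± 5.46 CPM in saline and 50.5 ± 6.04 CPM in batch 1 bleomycin, a change of 0.09 (adjusted p = 0.59). Several Gbp genes are close paralogs, and their separate counts carry the same uncertainty.

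The Ifitm genes, whose membrane proteins hinder viral fusion, showed no call in batch 1. Per kilobase of exon, Ifitm3 was the most abundant of all members, at 138 CPM per kb in saline and 162 CPM per kb in batch 1 bleomycin. On the same scale Rsad2 went from 0.55 to 3.99 CPM per kb and Oas3 from 0.25 to 1.43 CPM per kb, so the members with the largest changes were among the lower ones in level. Ifitm3 was 97.0, 87.1, 112, 91.5 and 81.2 CPM in saline and 81.6, 115, 124 and 118 CPM in batch 1 bleomycin. The groups overlapped, at a change of 0.22 (SE 0.14, adjusted p = 0.241). Ifitm1 stood at -0.45 (SE 0.22, adjusted p = 0.129). Ifitm6 rested on 182 reads in all, with 0 reads in bleomycin 1 and bleomycin 4, and was called lower in batch 2 only, at -2.42 (SE 0.88) with an adjusted p that rounds to the threshold.

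Type I-led and type II-led members were called at similar rates in batch 1. Of 28 type I-led members 17 (60.7%) were higher and 0 lower, and of 19 type II-led members 11 (57.9%) were higher and 0 lower. The shares over all tested genes were 17.5% higher and 13.4% lower. The median log2 change was 0.65 for the type I-led and 0.53 for the type II-led list, and 12 and 6 members respectively changed by more than 1. Without bleomycin 7 the type II-led count was 7. The mean log2 level of each list, taken relative to saline, was 0.80, 0.76, 0.95 and 0.82 for type I-led members in bleomycin 5 to 8. For type II-led members it was 0.48, 0.53, 1.06 and 0.60 in the same libraries. Bleomycin 7 was thus the highest of batch 1 on both lists and the only batch 1 bleomycin library where the type II-led level exceeded the type I-led level. In bleomycin 1 to 4 the type I-led level was 0.91, 0.71, 0.67 and 0.62 and the type II-led level 0.75, 0.63, 0.68 and 0.70. The difference between the lists was not tested, because the lists were drawn up with earlier results of these data known.

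**Figure D3:**
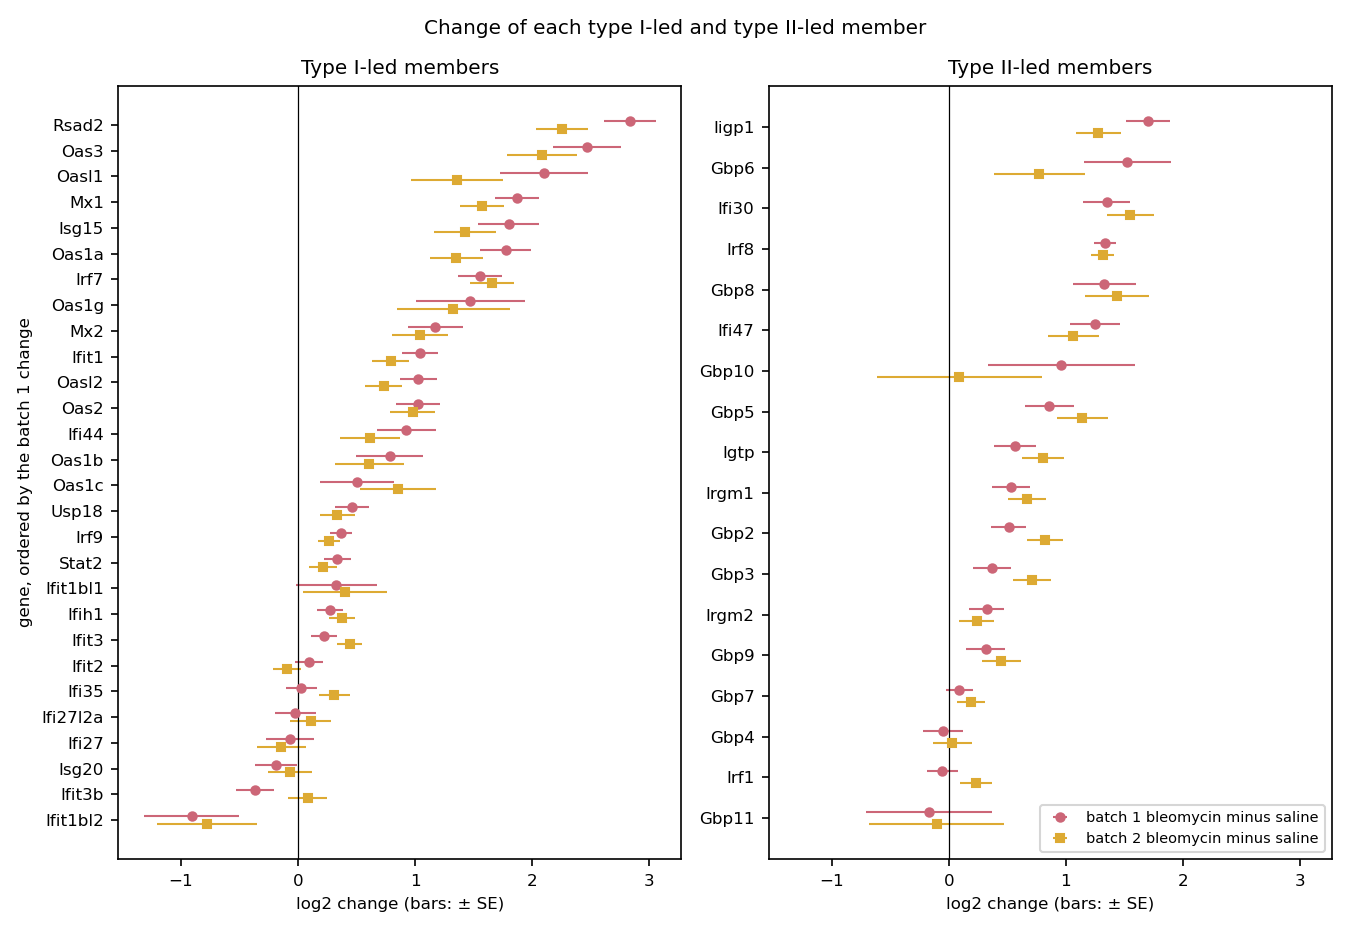
Each row is a type I-led (left) or type II-led (right) member, and points give the log2 change against saline with its SE for batch 1 bleomycin (circles) and batch 2 bleomycin (squares). In batch 1 the type I-led members run from -0.91 (Ifit1bl2, not called) to 2.83 (Rsad2) and the type II-led members from -0.17 (Gbp11, not called) to 1.71 (Iigp1).

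Genes outside the families that answer to interferon moved the same way. Over all tested genes 17.5% were called higher and 13.4% lower in batch 1. Of 22 other type I-induced genes 19 were higher in batch 1 and 0 lower, with a median log2 change of 0.56. They were led in size by the chemokine Cxcl10, which attracts T cells, at 0.341 ± 0.104 CPM in saline (SD, n = 5) and 5.13 ± 1.21 CPM in batch 1 bleomycin (n = 4), a change of 3.94 (SE 0.38, adjusted p = 3.03e-06). Lgals3bp, Epsti1 and Slfn8 rose by 1.59, 1.77 and 1.67. Of 18 other type II-induced genes 15 were higher and 0 lower, with a median of 1.02. They were led in size by the chemokine Cxcl9, at 0.811 ± 0.555 CPM in saline (SD, n = 5) and 9.09 ± 3.92 CPM in batch 1 bleomycin (n = 4). Its change was 3.56 (SE 0.45, adjusted p = 3.94e-05). The MHC class II genes H2-Ab1 and H2-Eb1 rose by 1.76 (SE 0.14, adjusted p = 7.96e-07) and 1.87 (SE 0.16, adjusted p = 1.56e-06). Their regulator Ciita rose by 1.52 and the invariant chain Cd74 by 1.47. Macrophages, dendritic cells and B cells make these class II genes without added interferon, and B cell and plasma cell markers were 95.3 to 130 CPM in saline and 232 to 341 CPM in batch 1 bleomycin.

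Markers of immune cells moved unequally in batch 1, where 17.5% of all tested genes were called higher and 13.4% lower. Of 14 macrophage and monocyte markers 13 were higher in batch 1, and their summed level in saline (285 to 310 CPM) overlapped neither batch 1 bleomycin (595 to 1210 CPM) nor batch 2 bleomycin (730 to 1158 CPM). Of 8 B cell and plasma cell markers 7 were higher. Of 16 T and NK cell markers, the cells that make interferon gamma, 4 were higher (Cd2, Cd3e, Cd4 and Trac) and 1 was lower (Gzma), with summed levels of 34.2 to 76.7 CPM in saline and 73.9 to 93.0 CPM in batch 1 bleomycin. Of 7 tested markers of plasmacytoid dendritic cells, which make type I interferon, 3 were higher, and 1 of these, Bst2, is itself interferon-induced. Neutrophil markers summed to 59.7 to 100.5 CPM in saline and 94.5 to 248.8 CPM in batch 1 bleomycin, where edgeR called 3 of 7 tested higher. For batch 2 against saline edgeR called 0 of 7, and 3 were higher at an unadjusted p under 0.05. Much of the sum was Ltf, which airway glands also make, at 47.1 ± 27.7 CPM (SD, n = 5) in saline and 129 ± 55.7 CPM (n = 4) in batch 1 bleomycin (not called, adjusted p = 0.114). No marker of these lists was at 0 in every library. In bulk lung, more cells of a type and more RNA per cell cannot be told apart, and the part of these markers in the members' changes was not tested. Bleomycin 5 had the lowest macrophage marker sum of its batch (595 CPM) and bleomycin 8 the highest (1210 CPM), with type I-led levels of 0.80 and 0.82 and type II-led levels of 0.48 and 0.60. In batch 2, bleomycin 3 had the lowest sum (730 CPM) and bleomycin 1 the highest (1158 CPM). Their type I-led levels were 0.67 and 0.91 and their type II-led levels 0.68 and 0.75, those of bleomycin 1 being the highest of batch 2.

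**Figure D4:**
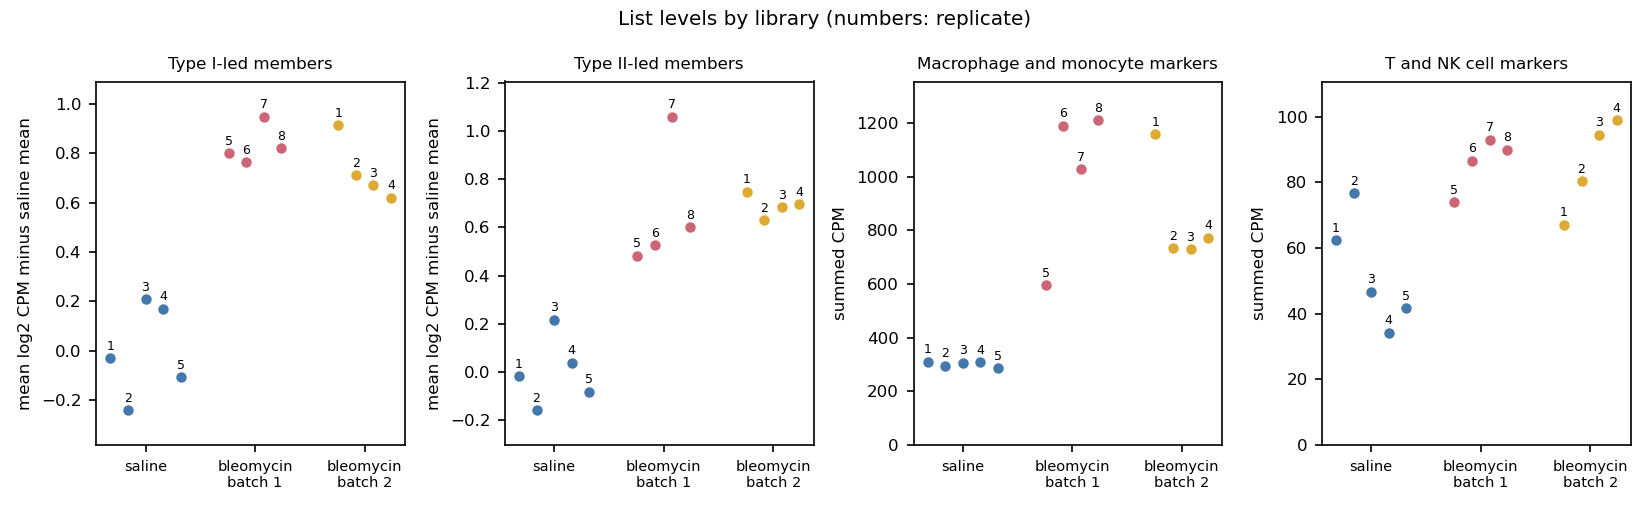
Points are libraries, labelled by replicate number; the left panels give the mean log2 CPM of type I-led and type II-led members minus the saline mean, the right panels the summed CPM of macrophage and monocyte markers and of T and NK cell markers. All 8 bleomycin libraries lie above all 5 saline libraries except in the T and NK panel, where saline 2 (76.7 CPM) lies above bleomycin 5 and bleomycin 1.

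Batch 2 bleomycin gave a similar set of values against the shared saline libraries. There 32 of 68 members (47.1%) were higher and 3 lower (among them Ifi208 and Ifitm6), while 15.7% of all genes were higher and 13.2% lower. Gbp6, Ifi44, Irf9, Oas1b, Oas1g, Stat2 and Usp18 were called higher in batch 1 but not in batch 2. Their edgeR adjusted p in batch 2 ran from 0.0503 (Oas1g) to 0.194 (Stat2). Gbp3, Ifih1 and Ifit3 were called higher in batch 2 only. For 35 members every batch 2 library lay above every saline library, as did 15.3% of all genes. Both comparisons use the same saline libraries, so their likeness is not independent. In batch 2, 13 of 28 type I-led members were higher with a median change of 0.61, and 11 of 19 type II-led members with a median of 0.71. Rsad2 changed by 2.26 (SE 0.22, adjusted p = 5.17e-06), Irf8 by 1.32 (SE 0.10, adjusted p = 3.55e-07) and Iigp1 by 1.28 (SE 0.19, adjusted p = 0.000237). With bleomycin 8 counted as saline, batch 2 kept 4 calls higher and 0 lower.

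The direct comparison of batch 2 with batch 1 bleomycin, which uses no saline library, called 0 of the 68 members with edgeR, against 1.68% of all genes. All 8 lung markers had a positive sign there, with a median of 0.58 and 1 called higher (Ager, 0.72, adjusted p = 0.0291), and their part in the members' values was not tested. DESeq2 and limma-voom also called 0 members, and 1 member was called when no low-count filter was used. At an unadjusted p under 0.05 edgeR had 1 member higher in batch 2 (Ifit3b, 0.45) and 6 lower, where 5.36% of all genes were higher and 9.27% lower at that cut. By adjusted p, 0.547% of all genes were called higher and 1.13% lower in batch 2. The libraries of the 2 bleomycin batches did not overlap for 1 member higher and 2 members lower in batch 2, against 2.78% and 4.80% of all genes. All 11 Ifi200 genes had a negative sign, with a median of -0.38, and the lowest adjusted p among them was that of Ifi205 (-0.75, adjusted p = 0.104 in edgeR). Among Gbp genes 8 of 10 had a positive sign, with a median of 0.10. Over all 20468 tested genes 11087 had a negative and 9381 a positive sign, with a median of -0.03. Reads may be shared between close paralogs, so signs within a family may not be independent.

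Members of a family lie near each other in the genome, and neighbours did not always change together. In the order of genes in RefSeq (GRCm38.p6), without RNA genes, 45 members fell into 10 runs, each of 1 family. In a run each member lay no more than 3 places from the next, so other genes can lie between them. On chromosome 5, 5 of the 6 genes of the Oas1 to Oas3 run rose, and both genes of the Oasl run and both Mx genes on chromosome 16 rose. On chromosome 19, 1 of the 6 Ifit genes rose: Ifit1 at 1.04, beside Ifit1bl2 at -0.91, which was not called. On chromosome 1, Ifi208 (-0.62) lay between Ifi209 (1.497) and Ifi207 (1.56). On chromosome 3, 2 of 4 Gbp genes rose, and on chromosome 5, 2 of 6. The 4 Ifitm genes of the run on chromosome 7 had no call. These tallies describe position only, and reads shared between close copies would blur differences inside a run.

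**Figure D5:**
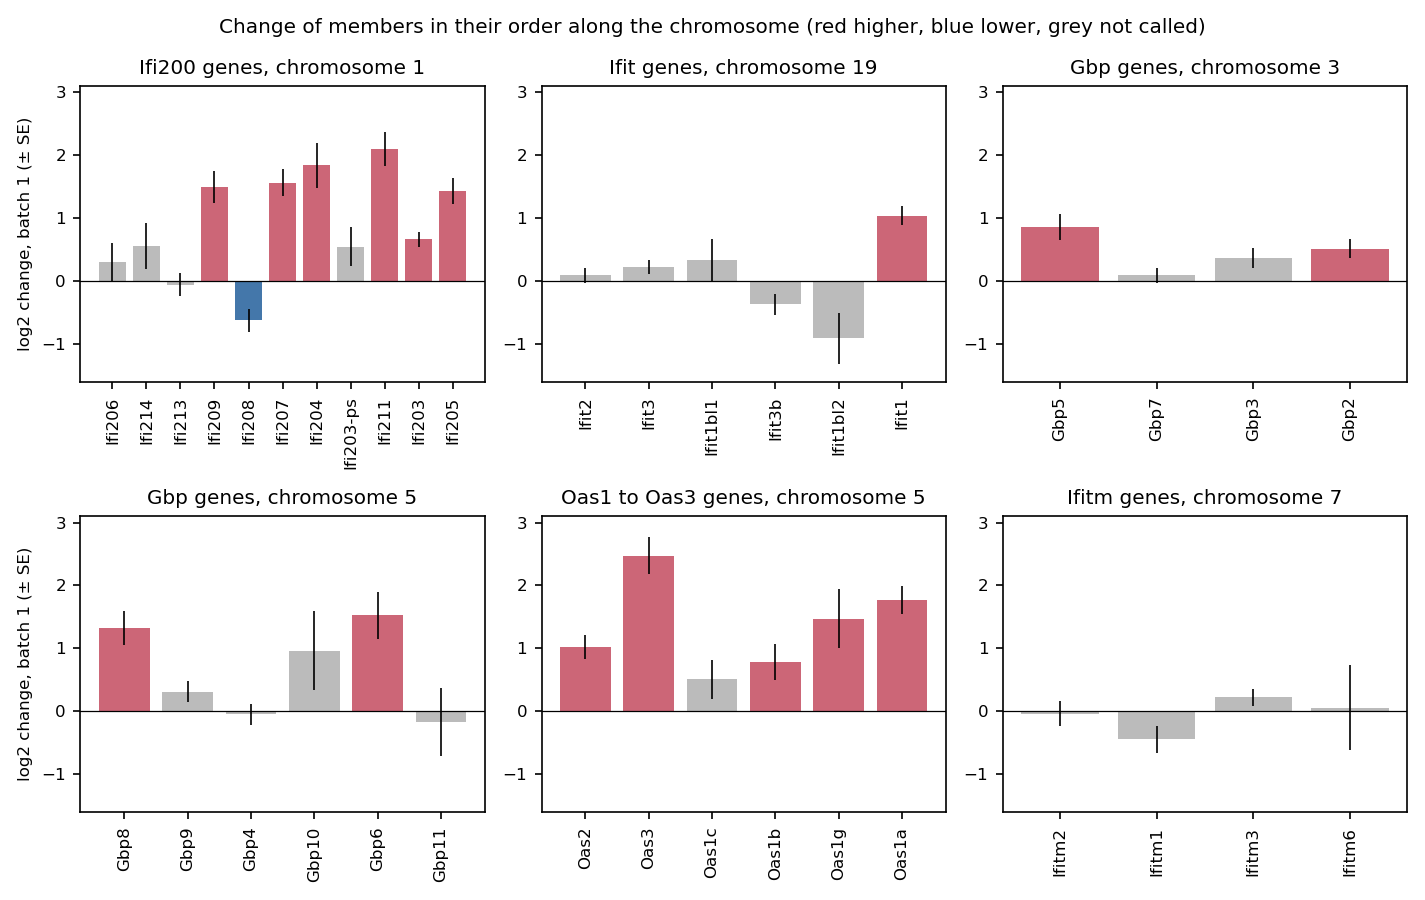
Bars give the batch 1 log2 change (± SE) of members in their order along the chromosome, for the runs of 4 or more, in red where called higher, blue where called lower and grey where not called. Ifi208 is the blue bar between red neighbours, and the Ifitm panel is all grey.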

How the data were processed

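Total RNA from 13 lung sections was sequenced after library preparation with a stranded total RNA kit for low input, per the labels' protocols. The authors deposited whole-number counts per gene symbol, without normalization. The submitters' processing notes name cutadapt 4.4, STAR 2.7.10b, featureCounts 2.0.3, DESeq2 1.42.1 and genome build mm39; they give no strand setting, annotation or use of molecular identifiers. Of counts from 1 to 10, 78.4% to 86.1% were even, which is how counting each mate of a read pair would look, so counts are not independent molecules. The authors' normalized table was not used.

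Genes were kept with filterByExpr over the 3 sets of libraries, scaled by TMM and fitted with robust quasi-likelihood in edgeR 4.0.16 (R 4.3.3), with batch and treatment as terms. Batch 1 bleomycin (n = 4) was compared with saline (n = 5), and batch 2 with batch 1 bleomycin (4 against 4). P-values were adjusted by Benjamini-Hochberg over 20468 genes. The biological coefficient of variation was 0.306. Like-treated libraries differed beyond sampling noise in all 38 pairs, with chi-square values of 9.18 to 235 per degree of freedom. The scripts were tested on simulated counts with 200 changed genes.

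The members and lists, and the motifs searched, were chosen with earlier results of these data known. Full statistics were given for the 1 or 2 members of each family with the lowest p, the most abundant of the larger families, and Irf1, Irf7, Isg15, Ifit1, Ifit3, Mx1, Oas2, Gbp2 and Igtp whatever their value; of each pathway list up to 4 genes by lowest p and the receptor chains were named. Values of other members were named in addition where they complete a family. Cxcl10 fell within that rule, and Cxcl9 was named in addition as the largest change of its list. Of the 68 members, 2 enter the counts only and are left out of the text and figures. Exon lengths came from GENCODE M21, and promoters and gene order from RefSeq on GRCm38.p6, matched by symbol; no coordinate was moved between builds. Alternatives were RLE size factors, no filter, DESeq2 1.42.0, limma-voom (limma 3.58.1), named genes alone, batch 1 alone, no batch term, a replicate block, bleomycin 8 as saline, and each of the 13 libraries left out. The fits with no batch term and with a replicate block drew on bleomycin libraries of both batches.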

Additional observations from a re-analysis of the deposited data

Results flagged for a closer look

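Of 87 groups of 4 or 5 libraries examined, for 29 members in 3 sets, 3 held a library far from the others of its group, where chance alone flags about 1 in 20. Ifit3 in saline 2 was 29.57 CPM, below the 31.55 to 32.35 CPM of the other saline libraries. Irf5 in saline 5 was 14.34 CPM, above 9.675 to 10.94 CPM in the others. Isg15 in bleomycin 8 was 6.582 CPM, below 8.896 to 9.228 CPM in the other batch 1 bleomycin libraries and above every saline library.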

How the results depend on the processing

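With bleomycin 8 counted as saline, 8 members were called higher and 0 lower in batch 1, against 36 and 2, with 4 type I-led and 4 type II-led members among the 8. In batch 2 that labelling left 4 higher and 0 lower, against 32 and 3, and over all genes 399 were higher and 246 lower in batch 1, against 3586 and 2733. DESeq2 and limma-voom each called 4 members lower in batch 1. Without the low-count filter 1 member was called between the batches, and the share of all genes called higher was 9.11%. With 1 of 13 libraries left out in turn, batch 1 had 29 to 36 members higher and 1 to 3 lower, batch 2 had 29 to 36 higher and 2 to 3 lower, and 0 differed between batches. In those fits type I-led members called higher were 13 to 17 and type II-led 7 to 12, with 7 without bleomycin 7. Of 38 called members 29 were kept in all 13 left-out fits and 5 (Oas3, Isg15, Ifit1, Iigp1 and Ifi47) in all 22 alternatives; of 30 uncalled members 23 were called in none. No called member changed sign. The replicate numbers shared by saline and bleomycin did not pair the libraries: the correlations of their deviations were -0.113, -0.349, -0.06, -0.123 and 0.041, and 0 saline libraries correlated best with their own number. A fit with the number as a replicate block had no batch term, so it is not a batch 1 comparison. Bleomycin 6 to 8 share no number with a saline library, so its change came from bleomycin 1 to 5. Of these, bleomycin 1 to 4 are of batch 2. In that fit 32 members were higher and 2 lower, 12 type I-led and 12 type II-led, while 2588 of all genes were higher and 2159 lower. Low depth limits the ligands and members such as Ifitm6 and Gbp10, and bleomycin 1 and bleomycin 4, of batch 2, are the shallowest libraries.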
